A study of Rattus norvegicus with 24 samples.

Results

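Atp2a3 and Atp10b encode P-type ATPases, membrane pumps that take a phosphate from ATP onto a conserved aspartate during each transport cycle. They were followed through 24 RNA sequencing libraries of primary rat oligodendroglia by their rows in the count files, ENSRNOG00000017912 for Atp2a3 and ENSRNOG00000003781 for Atp10b, which makes 2 of the 32883 genes listed for most libraries. Both were picked because they fell in oligodendrocytes (OLs) treated with dolutegravir (DTG) against OLs treated with the solvent dimethyl sulfoxide (DMSO). Values that rest on DTG-treated or DMSO-treated OLs are therefore given for these genes as a description, without a test.

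The cells were oligodendrocyte precursor cells (OPCs) from the cerebral cortices of Sprague Dawley rat pups at postnatal days 0 to 4, and DTG is an inhibitor of the HIV integrase. OPCs were kept for 24 h in proliferation medium with no treatment, with 0.04% DMSO or with 8 µM DTG. OLs came from OPCs with the same 24 h and a further 72 h in differentiation medium under the same treatment, so that the OLs were exposed at both stages. Each of the 6 groups held 4 libraries, replicates 1 to 4, which the study's methods give as independent litters, and the genes of a library took between 13241279 and 18499994 counts. These were shaken-off primary cultures and not single purified cells, and in such bulk samples fewer cells of a type and less RNA per cell cannot be told apart.

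The untreated libraries of replicate 3, an OPC and an OL library, list 30560 genes on another gene annotation than the other 22 libraries. For these genes the exonic length in those files was 10885 bases for Atp2a3 against 4828 in the other files, and 6031 for Atp10b against 7189. The tested values of both genes in untreated cells are given with and without them; all other untreated values include them unless stated.

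Atp2a3 is the gene of SERCA3, a pump that moves calcium from the cytosol into the endoplasmic reticulum (ER), next to the widely expressed SERCA2. Atp10b belongs to the P4-ATPases, or flippases, which move lipids from the outer or luminal leaflet of a membrane to the cytosolic one, and its protein is known for flipping glucosylceramide and phosphatidylcholine in late endosomes and lysosomes. OLs build large lipid-rich myelin sheets, and calcium signals are known to bear on their maturation and on myelin growth.

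Both genes lie on chromosome 10, on the plus strand. On Rnor_6.0, the build in the submitters' processing notes, Atp2a3 spans chr10:59529785-59560433 with 23 merged exons, and Atp10b spans chr10:28449335-28864255 with 24. No exon of another gene overlapped the exons of either, so that no other listed gene could share their reads by position. Both genes were chosen for their fall in OLs with DTG, so no shared control is read from that fall. The 250 bases before the RefSeq start of each gene are shown to let a reader compare the sequence from which each gene starts. They come from RefSeq on GRCr8, chr10:58080402-58080651 for Atp2a3 and chr10:27996479-27996728 for Atp10b, both 5′ to 3′ on the plus strand, and the start on that build may not be the start used by these cells. Capitals mark matches to the motifs searched on both strands.
Atp2a3: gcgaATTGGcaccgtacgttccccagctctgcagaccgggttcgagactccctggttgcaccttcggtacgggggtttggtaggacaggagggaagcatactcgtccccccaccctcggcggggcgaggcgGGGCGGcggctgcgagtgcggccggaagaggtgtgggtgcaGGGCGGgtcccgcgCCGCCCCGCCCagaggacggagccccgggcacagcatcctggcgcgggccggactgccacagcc
Atp10b: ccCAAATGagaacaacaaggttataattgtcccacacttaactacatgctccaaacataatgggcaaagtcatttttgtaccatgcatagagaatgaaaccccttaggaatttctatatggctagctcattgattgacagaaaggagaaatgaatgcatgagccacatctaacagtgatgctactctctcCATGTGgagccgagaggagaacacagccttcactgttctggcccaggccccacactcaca

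The stretches differ in base composition. That of Atp2a3 had 72.4% G and C and 27 CpG dinucleotides, more G and C than 94.3% of the 33469 RefSeq promoter stretches of that length. The stretch of Atp10b had 44% G and C and 1 CpG, and 23.8% of stretches had less G and C. In Atp2a3 the GC box GGGCGG matched 4 times, 119, 78, 64 and 59 bases before the start, the last 2 of which share a base, and 30.5% of all stretches held it. CCAAT matched once in Atp2a3, 246 bases before the start, as in 34% of all stretches, and not in Atp10b. The E-box letters CANNTG matched 2 times in Atp10b, 248 and 60 bases before the start, and not in Atp2a3, with a match in 65.5% of all stretches. TATAAA (12.9% of stretches), TGATGNAA (3.4%), ACAAAG (16.3%) and CTGGCAC (3.78%) were in neither stretch. A match here is a run of letters and not a bound site.

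The labelled stages are described on marker genes that could be named. Symbols were at hand for 2106 identifiers, from tables of the study that list genes it had picked in these libraries, so the lists below are partial. For the same reason a stage difference in a named marker is no independent check of the labels. Of the OL markers Mbp, Mog and Enpp6 were named (3 of 9). Mbp, a main myelin protein, was at 231 ± 105 CPM (counts per 1000000 gene counts after TMM scaling; mean ± SD, n = 4) in untreated OPCs and 7610 ± 2780 in untreated OLs. The OPC markers Pdgfra, the receptor for PDGF-AA, and Cspg4 (2 of 5 named) were at 675 ± 207 and 271 ± 71.1 CPM in untreated OPCs and at 234 ± 85.3 and 50 ± 13.3 in untreated OLs. Of other cell types, only microglial Cd68 (1 of 9) and neuronal Snap25, Map2 and Calb1 (3 of 7) were named, and markers of astrocytes, endothelial cells, platelets and pericytes were not analysed here. The neuronal genes summed to a median of 214 CPM in untreated OPCs and 110 CPM in untreated OLs, most of it Map2, and Snap25 went from 8.04 ± 2.93 to 0.546 ± 0.248 CPM. Cd68 went from 1.69 ± 0.726 to 0.307 ± 0.184 CPM. Snap25 and Cd68 were called as lower in untreated OLs (log2 fold changes -3.82 and -2.42). Map2 (-0.88, adjusted p = 0.0659, edgeR) and Calb1 (-1.35, adjusted p = 0.12, edgeR) were not called. In OLs against OPCs with DMSO, Cd68 (-2.40), Snap25 (-3.18), Map2 (-1.47) and Calb1 (-2.18) were all called lower. These genes were named through the genes the study had picked, so nothing is read from their direction. Their part in the results below was not tested.

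Atp2a3 was a low gene in OPCs under every treatment. Its CPM in replicates 1 to 4 was 1.22, 1.10, 0.761 and 0.692 in untreated OPCs. It was 1.24, 0.994, 0.819 and 1.69 in OPCs with DMSO. It was 1.96, 0.858, 0.516 and 0.695 in OPCs with DTG. The OPC groups overlapped fully, and the counts behind these values were between 9 and 37 a library, so that counting error alone is wide: 10 counts carry an exact 95% Poisson interval of 4.8 to 18.4, which covers counting error only.

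In OLs that had no DTG, Atp2a3 was several-fold higher. Untreated OLs had 6.37, 7.76, 7.19 and 4.44 CPM in replicates 1 to 4. OLs with DMSO had 5.91, 11.2, 6.56 and 5.02 CPM, and replicate 2 stood highest of all 24 libraries. Every one of these 8 libraries lay above every OPC library in CPM, and how many other genes did so was not counted.

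In OLs with DTG, Atp2a3 was as low as in the OPCs or lower. Replicates 1 to 4 had 0.381, 0.904, 1.62 and 0.628 CPM, from 5, 10, 21 and 10 counts. None of the 4 reached the lowest OL without DTG, 4.44 CPM, and none of the 4 lay above the highest OPC library, 1.96 CPM. Replicate 1 lay below the lowest OPC library, 0.516 CPM.

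Ordered by mean CPM (± SD, n = 4), Atp2a3 went from 0.884 ± 0.537 in OLs with DTG through 0.943 ± 0.256 in untreated OPCs, 1.01 ± 0.65 in OPCs with DTG and 1.19 ± 0.38 in OPCs with DMSO to 6.44 ± 1.45 in untreated OLs and 7.18 ± 2.78 in OLs with DMSO. Neighbours in this order differed by less than the larger of their SDs, except for the step from OPCs with DMSO to untreated OLs.

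Atp10b had another course. Its CPM in replicates 1 to 4 was 3.41, 3.05, 2.87 and 0.761 in untreated OPCs. It was 4.89, 2.56, 3.68 and 0.811 in OPCs with DMSO. It was 5.30, 3.78, 3.61 and 2.43 in OPCs with DTG. Replicate 4 was the lowest of each OPC group.

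Without DTG, OLs held Atp10b at about the OPC level. Untreated OLs had 3.96, 4.23, 2.90 and 3.57 CPM. OLs with DMSO had 4.06, 5.10, 4.65 and 1.5 CPM, again with replicate 4 lowest. The OL and OPC values overlapped.

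In OLs with DTG, Atp10b was at 0.685, 0.452, 0.618 and 0.942 CPM in replicates 1 to 4, from 9, 5, 8 and 15 counts. All 4 lay under every OL library without DTG and under every OPC library of replicates 1 to 3. They overlapped the replicate 4 libraries of untreated OPCs and of OPCs with DMSO.

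The means of Atp10b (± SD, n = 4) were 0.674 ± 0.204 CPM in OLs with DTG, 2.52 ± 1.20 in untreated OPCs, 2.99 ± 1.73 in OPCs with DMSO, 3.67 ± 0.576 in untreated OLs, 3.78 ± 1.18 in OPCs with DTG and 3.83 ± 1.61 in OLs with DMSO. The 5 groups from untreated OPCs upward differed from their neighbours by less than the larger SD. The step from OLs with DTG to untreated OPCs was larger than the SD of both.

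**Figure D1:**
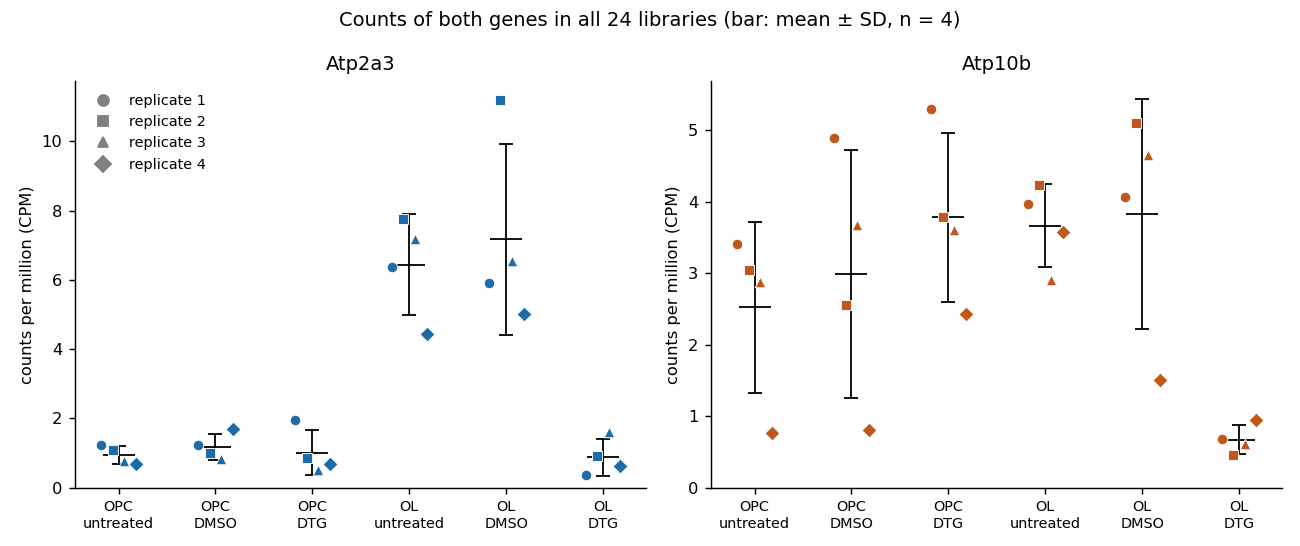
CPM of Atp2a3 (left) and Atp10b (right) in each library of the 6 groups, with a marker shape for each replicate and bars for mean ± SD (n = 4). Atp2a3 is high in OLs without DTG and low in the other 4 groups, whereas Atp10b is low in OLs with DTG and in replicate 4 of untreated and DMSO-treated OPCs.

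Per kilobase of exon, which allows the genes to be set side by side, the order of their means turned with the stage. With the replicate 3 untreated libraries left out, Atp2a3 was at 0.208 ± 0.0571 CPM per kb and Atp10b at 0.335 ± 0.20 in untreated OPCs (n = 3). These means differed by less than the SD of Atp10b. In untreated OPC replicate 4 the order was the other, with Atp2a3 at 0.143 and Atp10b at 0.106 CPM per kb. In untreated OLs Atp2a3 was at 1.28 ± 0.346 and Atp10b at 0.545 ± 0.0459 CPM per kb (n = 3). In OLs with DTG the values were 0.183 ± 0.111 and 0.0938 ± 0.0283 CPM per kb (n = 4). Both genes stood low among the 12851 genes compared on this scale: 20.4% of them were lower than Atp2a3 in untreated OLs and 4.26% in OLs with DTG. For Atp10b the shares were 11.4% and 2.04%.

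The comparison of untreated OLs with untreated OPCs asks how the genes differ between the stages with neither DTG nor DMSO, and it shares no library with the contrast that chose them. Atp2a3 rose by 2.74 on the log2 scale (SE 0.32, a 6.69-fold difference, adjusted p = 2.26e-04 over 12158 genes, edgeR's quasi-likelihood test). The rise was seen in 4 of 4 replicates, by 2.27, 2.67, 3.02 and 2.47. Calls needed an adjusted p (Benjamini-Hochberg) under 0.05 with a log2 fold change above 1 in size. On these terms 24.9% of all genes tested were called here, 11.5% as higher, so that a call was common between these stages. Without replicate 3 in both groups the log2 fold change of Atp2a3 was 2.58.

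Atp10b was not called between the untreated stages, with a log2 fold change of 0.51 (SE 0.40, adjusted p = 0.34 in the same edgeR test). Its differences in replicates 1 to 4 were 0.21, 0.45, -0.00 and 2.05 on the log2 scale, so that replicate 4, with its low OPC value, gave most of the mean. Without that OPC library the log2 fold change was 0.23, without OPC replicate 1 it was 0.70, and without replicate 3 in both groups it was 0.67.

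Whether the 2 genes differed in their change was tested on the log2 ratio of Atp2a3 to Atp10b per kilobase in each library, with 0.5 added to each count. The ratio was -0.89, -0.87, -2.73 and 0.44 in untreated OPCs and 1.25, 1.44, 0.45 and 0.88 in untreated OLs. The mean was 2.02 higher in OLs (p = 0.0286, two-sided exact permutation test, n = 4 against 4, the smallest p that 4 against 4 libraries can give). The groups were separated by only 0.44 against 0.45, and the latter value comes from a replicate 3 library, whose lengths are of the other annotation. With 1 added to each count in place of 0.5 they overlapped and the exact p was 0.0571. Within replicates the ratio was higher in the OL in each pair, with an exact p of 0.125, the smallest that 4 pairs allow.

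**Figure D2:**
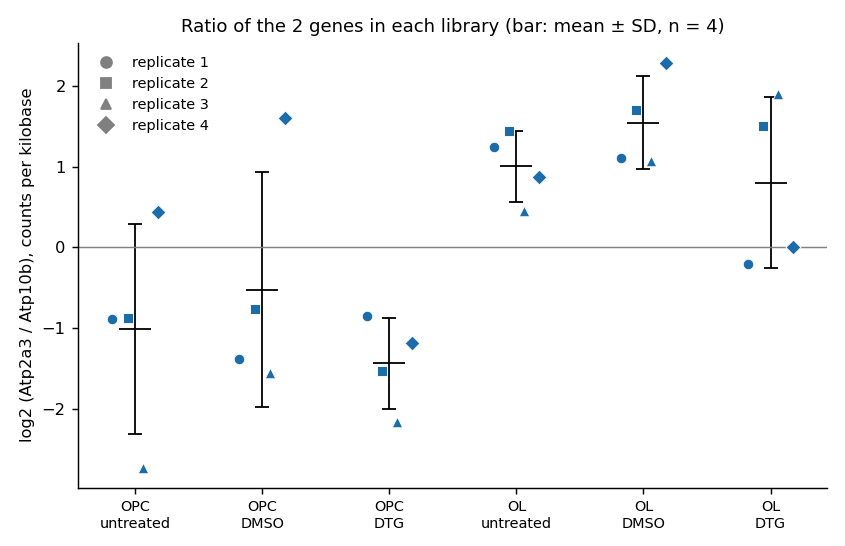
Log2 ratio of Atp2a3 to Atp10b per kilobase of exon in each library, with a marker shape for each replicate and bars for mean ± SD (n = 4). Untreated OLs lie from 0.45 to 1.44 and untreated OPCs from -2.73 to 0.44.

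With DMSO the stages gave values close to those of the untreated cells, in libraries of which the OLs belong to the contrast that chose the genes. Atp2a3 had a log2 fold change of 2.64 (SE 0.37) and Atp10b of 0.35 (SE 0.46) in OLs against OPCs with DMSO, where 32.6% of 13023 genes were called, 14.1% as higher and 18.5% as lower. Leaving out a library moved this value of Atp10b between 0.06 (without OPC replicate 4) and 0.64 (without OPC replicate 1). OLs with DMSO against untreated OLs gave 0.13 (SE 0.29) for Atp2a3 and 0.03 (SE 0.34) for Atp10b. No gene of 11893 was called in the latter comparison (0%), with 891 genes at an unadjusted p under 0.05 in edgeR and 0 called by DESeq2.

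With DTG the stages gave other values. Atp2a3 had a log2 fold change of -0.23 (SE 0.53) in OLs against OPCs with DTG, with differences of -2.05, 0.07, 1.47 and -0.14 in replicates 1 to 4, so that no direction was shared. It ran from -0.70 without the OL library of replicate 3 to 0.33 without the OPC library of replicate 1. Atp10b had a log2 fold change of -2.44 (SE 0.37) and was lower in the OL library in 4 of 4 replicates, by 1.27 to 2.75. In that comparison 39.3% of 13171 genes were called, 22.8% as lower, and it shares the DTG-treated OLs with the contrast behind the choice.

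The contrast that chose the genes, OLs with DTG against OLs with DMSO, is given as it stands. Atp2a3 had a log2 fold change of -3.04 (SE 0.40), which is 8.24-fold lower, and the replicates differed by -3.54, -3.44, -1.89 and -2.75. Atp10b had a log2 fold change of -2.45 (SE 0.43), 5.48-fold lower, with replicates at -2.36, -3.13, -2.61 and -0.62. The smallest of these differences for Atp10b was in replicate 4, whose DMSO-treated OL library was low. Of 12710 genes 0.582% were called in this contrast (74 genes), 0.212% as lower, and nothing is read from this share for genes chosen in it. With a replicate block 173 genes were called.

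Against untreated OLs, which share the DTG libraries, OLs with DTG gave log2 fold changes of -2.86 (SE 0.38) for Atp2a3 and -2.38 (SE 0.29) for Atp10b. In this comparison 0.277% of 11909 genes were called, 0.0756% as lower. That share rests on 33 called genes, a number that ran from 5 to 41 when a library was left out. These values are not independent of the choice of the genes.

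In OPCs the DTG comparison uses no library of that contrast and could be tested. OPCs with DTG against OPCs with DMSO gave a log2 fold change of -0.19 (SE 0.45, adjusted p = 0.921, edgeR) for Atp2a3 and 0.32 (SE 0.44, adjusted p = 0.907, edgeR) for Atp10b, and neither was called. No gene of 13270 was called in this comparison (0%), with 69 at an unadjusted p under 0.05 in edgeR and 0 called by DESeq2. The 69 became 871 with the replicate block, 240 with no filter on low counts, 114 with DESeq2 and 111 with all groups in 1 fit. When a library was left out the number ran from 28 to 882, the highest without DMSO replicate 3. No gene was called in these settings. Atp2a3 differed by 0.60, -0.17, -0.55 and -1.15 on the log2 scale in replicates 1 to 4 and Atp10b by 0.10, 0.56, -0.01 and 1.46. Leaving out a library moved Atp10b between 0.03 (without DMSO replicate 4) and 0.65 (without DMSO replicate 1). At counts of 9 to 100 a library a difference of the size of these standard errors was not detectable in OPCs. Whether the DTG difference itself differed between OPCs and OLs was not tested, since the OL values chose the genes.

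DMSO alone in OPCs gave 0.30 (SE 0.35) for Atp2a3 and 0.24 (SE 0.55) for Atp10b on the log2 scale against untreated OPCs, both at an adjusted p of 1 in edgeR. Without replicate 3 in both groups the values were 0.37 and 0.20. No gene of 12182 was called (0%), with 73 at an unadjusted p under 0.05 and 0 called by DESeq2.

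**Figure D3:**
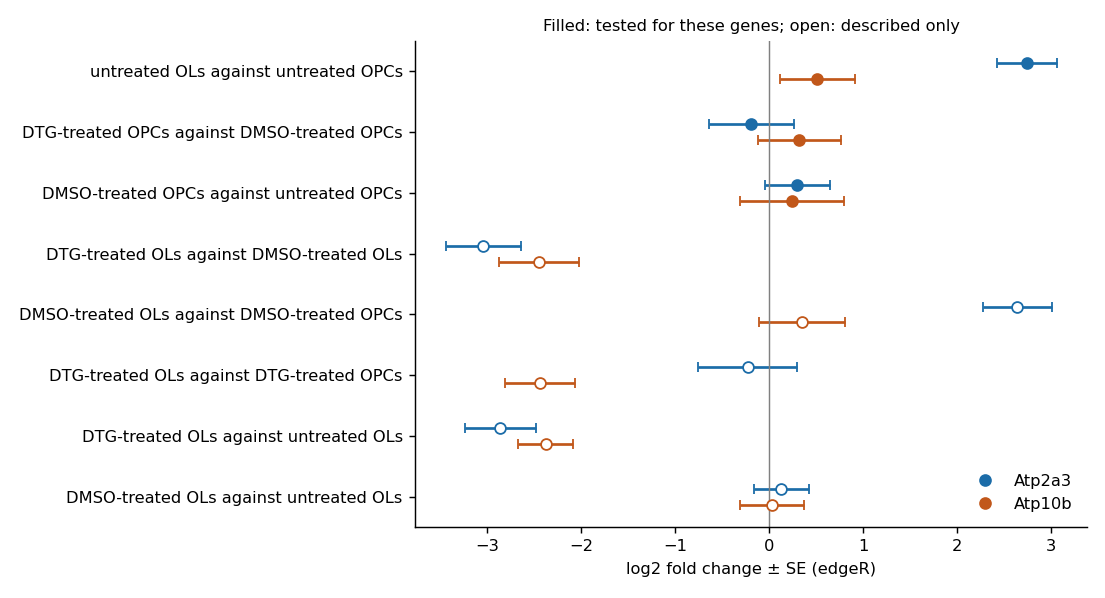
Log2 fold change ± SE from edgeR for Atp2a3 and Atp10b in 8 comparisons, filled where the comparison was tested for these genes and open where it is described only. Both genes lie at -2.38 or lower in OLs with DTG against OLs without it, and only Atp2a3 lies far above 0 between the stages without DTG.

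Spike-in scaling asks how the genes stood against the ERCC transcripts, synthetic RNAs that went into each sample's normalized total RNA. The ERCC took 1.06% to 7.19% of all counts, and by this scale the median gene was lower (log2 fold change -1.0) in untreated OLs than in untreated OPCs. With the ERCC total in place of the gene total in the CPM, Atp2a3 was at 54.5 ± 19.1 in untreated OPCs, 186 ± 42.6 in untreated OLs and 25.5 ± 12.8 in OLs with DTG (mean ± SD, n = 4). Those of Atp10b were 157 ± 94.2, 114 ± 53 and 22.9 ± 15.2. OLs with DMSO were at 163 ± 84 for Atp2a3 and 88 ± 60.3 for Atp10b. For Atp2a3 they ran from 68.9 to 244 on this scale and overlapped OPCs with DTG, which reached 132. Atp2a3 was still called between the untreated stages, with a log2 fold change of 1.80 (adjusted p = 0.0226, edgeR). Atp10b turned to -0.45, still above the median gene. On this scale Atp2a3 in OLs with DTG lay below the OPCs with DTG, with a log2 fold change of -1.5 against a median of -1.36 over all genes, so that its place at the OPC level holds relative to other genes and not relative to the spike-in.

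**Figure D4:**
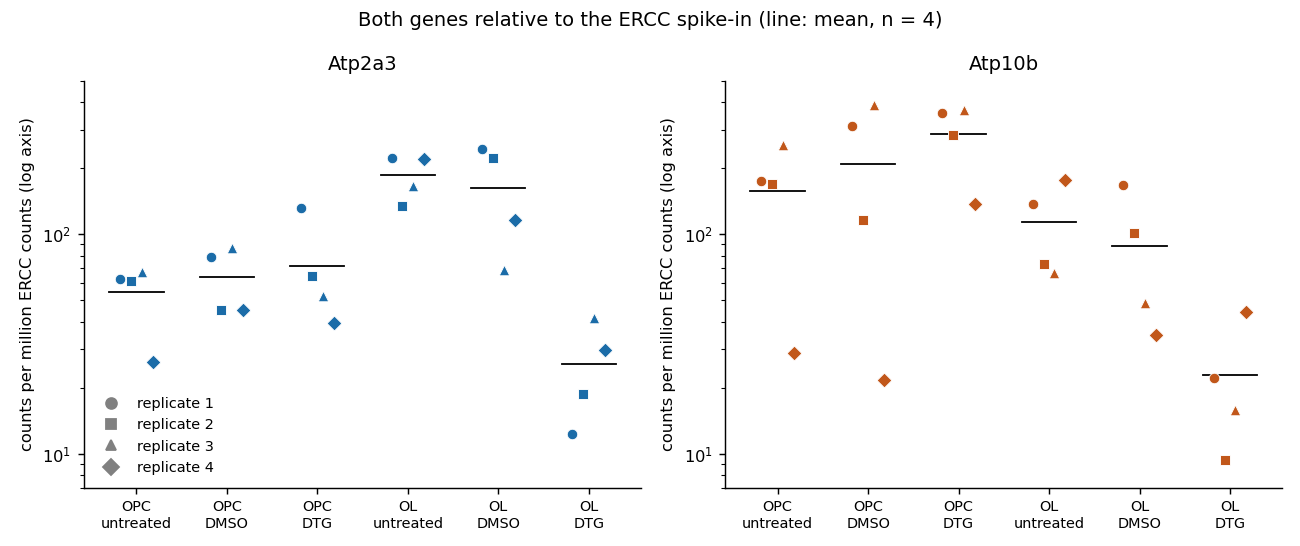
ERCC-scaled CPM of Atp2a3 (left) and Atp10b (right) in each library, on a log axis, with a marker shape for each replicate and lines for the means (n = 4). OLs with DTG hold the lowest mean of both genes, 25.5 and 22.9.

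Other genes of calcium and lipid transport were taken from lists of P-type ATPases, ER calcium handling and scramblases, of which 12 are reported. They are the plasma membrane calcium pumps Atp2b1, Atp2b3 and Atp2b4 (3 of the 8 calcium P-type ATPases), the flippase Atp10d (1 of 14), Atp13a3 (1 of 16 other P-type ATPases), the ER calcium channels Itpr1 and Ryr3 with the calcium sensor Stim2 (3 of 17), the ER calcium-binding proteins Hsp90b1 and Rcn1 (2 of 15), and Ano6 and Xkr4 of the scramblase families (2 of 8). The other SERCA genes Atp2a1 and Atp2a2 and the sister flippase Atp10a were not among the named genes and are not analysed here, and none of the 3 flippase subunits was named.

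None of these 12 was called in OLs with DTG against OLs with DMSO, where 0.582% of all genes were. Their log2 fold changes ran from -0.52 for Hsp90b1 (adjusted p = 0.15, edgeR) to 0.86 for Atp2b4 (adjusted p = 0.144, edgeR), with a median of 0.23 beside 0.01 over all genes. All 12 were called lower in OLs than in OPCs with DMSO, and those OL libraries are the control here. Nothing is therefore read from the lack of calls or from the median. Atp10d, the nearest named relative of Atp10b, was at 3.26 ± 0.839 CPM in OLs with DMSO and 3.99 ± 1.27 in OLs with DTG (mean ± SD, n = 4), with a log2 fold change of 0.29 (SE 0.29, adjusted p = 0.715, edgeR). Rcn1, a calcium-binding protein of the ER lumen, was at 25.8 ± 3.92 and 41.4 ± 8.79 CPM, with a log2 fold change of 0.67 (SE 0.18, adjusted p = 0.115, edgeR). None was called in OPCs with DTG against DMSO either, where the 12 had a median of 0.28 beside -0.00 over all genes.

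Between the untreated stages 8 of the 11 tested were called, all lower in OLs, and none higher, beside 13.4% of all genes called lower. They were Atp2b1 (-1.37), Atp2b3 (-1.47), Atp2b4 (-1.63), Itpr1 (-1.60), Stim2 (-1.11), Hsp90b1 (-1.09), Rcn1 (-1.51) and Ano6 (-1.34). The symbols of all 12 come from genes that the study had picked in these libraries. In the edgeR fit of OLs against OPCs with DMSO all 12 were called lower, so nothing is read from this count. Atp10d (-0.99, adjusted p = 0.0306, edgeR) missed the size threshold. Atp2a3 had the opposite sign to the 3 other calcium pumps named. Nothing is read from this either, since those 3 were named through the same picked genes.

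The OL markers gave values beside those of Atp2a3. In OLs with DTG against OLs with DMSO, Mog, a myelin surface protein, fell by 1.01 on the log2 scale (SE 0.17, adjusted p = 0.0116, edgeR). Mbp had -1.40 (SE 0.34, adjusted p = 0.0865, edgeR) and Enpp6, a choline-specific phosphodiesterase of newly formed OLs, -1.09 (SE 0.30, adjusted p = 0.123, edgeR), and neither was called. The study, which used DESeq2, reported Mbp, Mog and Enpp6 transcripts as reduced in this contrast, and Mbp also by quantitative PCR. These markers were named from the study's own list for this contrast. Their level in OLs with DTG stayed well above that of OPCs: Enpp6 was at 2.00 ± 1.19 CPM in OPCs with DTG and 45.1 ± 18.1 in OLs with DTG, with a log2 fold change of 4.50 (SE 0.44, adjusted p = 1.12e-05, edgeR). Mbp had 4.18 there and Mog 2.48, where Atp2a3 had -0.23. The OPC markers in OLs with DTG against DMSO had log2 fold changes of -0.26 for Pdgfra and 0.24 for Cspg4, neither called, and the part of the OL stage in the values of Atp2a3 and Atp10b was not tested.

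**Figure D5:**
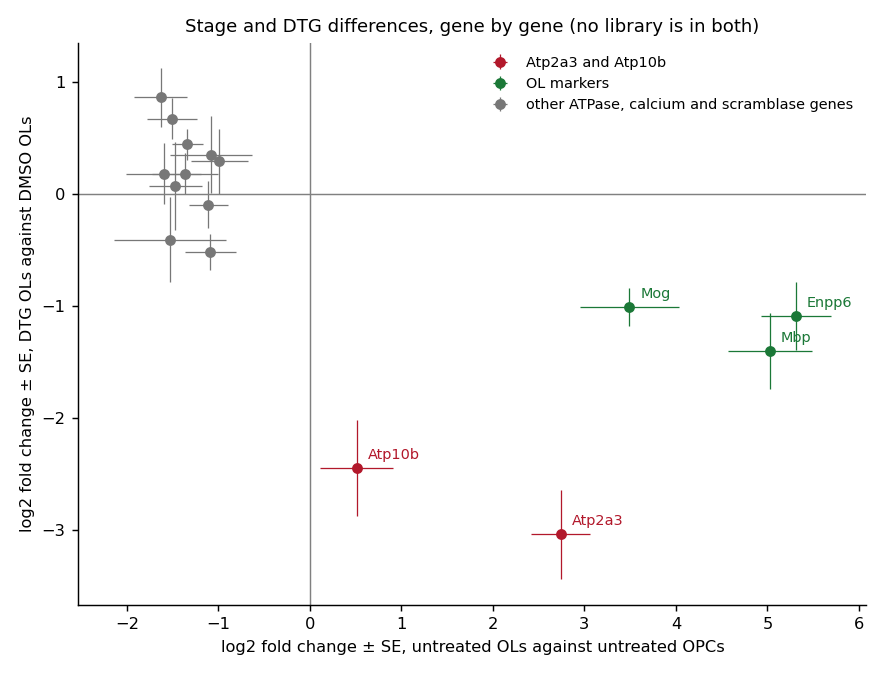
Log2 fold change ± SE of untreated OLs against untreated OPCs (x axis) and of OLs with DTG against OLs with DMSO (y axis), for Atp2a3 and Atp10b, 3 OL markers and 11 named genes of ion and lipid transport. Atp2a3 lies at 2.74 and -3.04 and Atp10b at 0.51 and -2.45, whereas Mbp, Mog and Enpp6 lie at 3.49 or more and between -1.40 and -1.01.

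Likeness of pattern was measured by Pearson's r of log2 CPM over the 22 libraries on the same annotation, among 12467 genes, and is a description: the points share 6 groups and their depth, and genes with a symbol (1935 of them) were mostly picked by the study in these libraries. The 22 include the OLs with DTG and with DMSO that chose both genes, so a gene that also fell there gains in r. The named genes closest to Atp2a3 were Gjc3 (r = 0.83), the OL gap junction protein connexin 29, the serine protease gene Tmprss5 (0.83), LOC103690190 (0.82), Kndc1 (0.81) and Pfkl (0.80), a phosphofructokinase of glycolysis. Gjc3 had a mean log2 CPM of 0.67 in untreated OPCs, 4.45 in untreated OLs and 2.48 in OLs with DTG, so that it stayed above its OPC level with DTG. Tmprss5 had -0.99, 3.04 and 0.86.

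For Atp10b the closest named gene was Arrdc4 (r = 0.80), an arrestin-domain gene that responds to glucose. Arrdc4 had a mean log2 CPM of 3.53 in untreated OPCs, 3.82 in untreated OLs and 1.37 in OLs with DTG. It was followed at some distance by Zfp597 (0.63), Hist1h3a (0.62), the RNA helicase gene Dhx9 (0.61) and Txnip (0.57), the arrestin-like inhibitor of thioredoxin. Only 2 of the 100 genes closest to Atp10b had a symbol, against 17 of 100 for Atp2a3, so that most of the closest genes go unnamed. Atp2a3 and Atp10b had an r of 0.46 with each other over the same 22 libraries, which include those that chose them.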

How the data were processed

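RNA of 6 groups of 4 libraries was poly(A) selected and sequenced as pairs without strand information. Per the submitters' processing notes the tools were bcl2fastq 2.20, STAR 2.5.2b and featureCounts of Subread 1.5.2, on Rnor_6.0. The authors deposited raw read counts per gene and library, with 92 ERCC transcripts. The untreated replicate 3 libraries list another annotation, and 21651 identifiers are common to all.

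Each comparison used its own libraries in R 4.3.3 with edgeR 4.0.16 (filterByExpr, TMM, quasi-likelihood F test, Benjamini-Hochberg adjustment). CPM used TMM over all 24 libraries. DESeq2 1.42.0 was an alternative. The ratio was tested with scipy's exact permutation test. Scripts were tested on simulated data. ERCC counts stayed out of library sizes except for spike-in scaling.

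By the study's methods separate replicates are independent litters, but they do not say that a number is the same litter in every group. The library names give replicates 2 and 3 the same date. Deviations of the same number from the group means correlated at 0.54, 0.27, 0.68 and 0.30 for replicates 1 to 4 in the untreated stages, at 0.73, -0.08, 0.59 and 0.82 in OPCs with DTG and DMSO, at 0.43, 0.40, 0.40 and 0.00 in OLs with DTG and DMSO, and at 0.33, -0.05, 0.09 and -0.34 in OLs and OPCs with DTG. Over all 8 comparisons they ran from -0.34 to 0.82.

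The members and the gene lists were chosen with earlier results of these data known. Named were both members, the genes of the lists that had a symbol, their nearest relatives and the 5 named genes most alike in pattern. Rows of comparisons in the study's tables were not used, only identifiers and symbols. Protein sequences were not used here, and 1 gene of the lists is not reported here.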

Additional observations from a re-analysis of the deposited data

How the results depend on the processing

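The rise of Atp2a3 from untreated OPCs to untreated OLs kept its direction and its call under every alternative run, with log2 fold changes from 2.63 to 2.90 when a library was left out and 1.80 with ERCC scaling. Counts of 5 to 150 a library limit precision for both genes. The ratio of Atp2a3 to Atp10b stayed higher in untreated OLs under every alternative run. It was 1.99 with 1 added to each count, where the exact p rose to 0.0571. The other alternatives could not reach a p under 0.05 and gave the smallest exact p of their designs: 2.02 with the replicate block (0.125, 4 pairs), 1.63 without replicate 3 (0.10, 3 against 3), and from 1.45 to 2.5 when a library was left out (0.0571, 4 against 3). ERCC scaling turned Atp10b to -0.45 between the untreated stages and Atp2a3 to 0.34 in OPCs with DTG against DMSO; neither was called in any setting. In OPCs with DTG against DMSO, Atp2a3 ranged from -0.74 to 0.02 when a library was left out, at 0.02 without DMSO replicate 4 and 0.02 without DTG replicate 3. In OPCs with DMSO against untreated OPCs, Atp10b ranged from -0.06 to 0.55, at -0.05 without untreated replicate 4 and -0.06 without DMSO replicate 1. Among the values described without a test, ERCC scaling moved OLs against OPCs with DMSO to 1.28 for Atp2a3 and -1.10 for Atp10b (median of all genes -1.52), Atp10b in OLs against OPCs with DTG to -3.71, and Atp2a3 in OLs with DMSO against untreated OLs to -0.32; the last ranged from -0.16 to 0.28 when a library was left out. The falls in OLs with DTG against DMSO ranged from -3.52 to -2.74 for Atp2a3 and from -2.71 to -2.28 for Atp10b. Atp2a3 in OLs against OPCs with DTG, low in both, did not pass the stricter filter and has no value there. The replicate block changed no call of either gene. An alternative chosen after seeing the data, the block without replicate 3, gave 2.61 for Atp2a3 and 0.80 for Atp10b between the untreated stages.

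Counts of called genes moved by over 1.5 times in some settings. For OLs with DTG against DMSO, 74 became 128 with DESeq2, 19 with ERCC scaling, 173 with the block, 39 with all 6 groups in 1 fit and 28 without DMSO replicate 2. For OLs with DTG against untreated OLs, 33 became 107 with DESeq2, 107 with the block, 53 with all groups, 10 without replicate 3, 162 with the block without replicate 3, and 5 to 41 when a library was left out. For OLs against OPCs ERCC scaling gave 6979 against 4245 with DMSO and 8530 against 5170 with DTG, nearly all lower. For OLs with DMSO against untreated OLs it gave 66 against 0, and the block without replicate 3 gave 15; for OPCs with DMSO against untreated OPCs the latter gave 4 against 0. ERCC scaling moved the untreated stages to 4149 called genes, 383 of them higher. The cause was not tested. The numbers of genes at an unadjusted p under 0.05, given where none was called, moved too. For OPCs with DMSO against untreated OPCs, 73 became 48 with DESeq2, 344 with no filter and 185 with all groups. That number was 18 without replicate 3, 341 with the block without replicate 3, and 36 to 141 when a library was left out. For OLs with DMSO against untreated OLs, 891 became 345 with ERCC scaling, 359 with all groups, 2233 with the block without replicate 3, and 469 to 1440 when a library was left out.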

Other observations

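The 2 untreated libraries of replicate 3 counted Atp2a3 over 10885 exonic bases and the others over 4828, and they held 13 counts in the OPC library beside 21, 17 and 10 in the other untreated OPC libraries, and 104 in the OL library beside 90, 90 and 77. Atp10b, over 6031 bases there and 7189 in the others, had 49 counts in the OPC library beside 59, 47 and 11, and 42 in the OL library beside 56, 49 and 62.

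In the OPC groups and in untreated OLs, no library stood apart from its group by Dixon's test at the 95% level for either gene. The OLs with DTG or DMSO, which chose the genes, are left out of this test. The nearest to it was untreated OPC replicate 4 for Atp10b, whose gap to the next library made up 0.796 of the group's range.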
